A study of Mus musculus with 8 samples.

Results

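Ly6 antigens and monocyte markers were followed through 8 RNA-sequencing libraries of myeloid cells from the injured mouse retina. The set holds 6 genes, Ly6c2, Ly6c1, Ly6a, Ly6e, Plac8 and Crip1, taken by symbol from the 22558 gene symbols in the deposited tables. All 6 had a row in every library, and all 6 passed the filter on low values. There were 4 libraries of infiltrating macrophages, numbered 5 to 8, and 4 libraries of microglia, numbered 1 to 4. Every mouse was of the genotype Msi1-CreERT2/+; R26R-DTA/+ on a mixed C57BL/6 and 129 background, was about 5 months old, and was sampled on day 7 after injury. Msi1-CreERT2 is a tamoxifen-inducible Cre recombinase under the Msi1 gene, and R26R-DTA makes diphtheria toxin A in cells in which Cre has acted, so the injury is a loss of Msi1-expressing cells and their descendants. Both populations came from retinas that carried both alleles, and cells of uninjured retina were not analysed here. Titles of the macrophage libraries start with GFP and those of the microglial libraries with cont, but no GFP allele is in the labelled genotype, and how the cells were separated is not given in the sources used here.

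Ly6 proteins are small, cysteine-rich surface proteins held in the outer membrane by a GPI anchor. Ly6C, the antigen encoded by Ly6c1 and Ly6c2, is high on classical (inflammatory) blood monocytes and low on patrolling monocytes, and it is usually lost as monocytes become tissue macrophages, whereas resting microglia carry little of it. Ly6a encodes Sca-1, an interferon-inducible antigen of stem cells, lymphocytes and endothelium, and Ly6e encodes an interferon-inducible family member made by many cell types. Plac8 encodes a small cysteine-rich protein without a GPI anchor that is abundant in several myeloid and lymphoid cells. Crip1 encodes a small zinc-binding protein with a single LIM domain.

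The first 300 bases of the Ly6c2 and Ly6c1 coding sequences are shown first because their likeness bears on how far sequencing reads can separate the pair. They were read from the NCBIM37 genome, the same assembly as the mm9 build of the deposited files, on the minus strand of chromosome 15 with the GENCODE vM1 annotation. Capitals mark the bases at which they differ, 7 within the stretch shown.
Ly6c2: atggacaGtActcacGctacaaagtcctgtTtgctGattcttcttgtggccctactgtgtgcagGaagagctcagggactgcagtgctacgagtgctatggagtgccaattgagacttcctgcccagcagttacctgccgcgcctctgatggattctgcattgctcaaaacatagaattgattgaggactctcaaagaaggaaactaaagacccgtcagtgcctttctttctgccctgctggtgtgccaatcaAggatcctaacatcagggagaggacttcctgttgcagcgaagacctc
Ly6c1: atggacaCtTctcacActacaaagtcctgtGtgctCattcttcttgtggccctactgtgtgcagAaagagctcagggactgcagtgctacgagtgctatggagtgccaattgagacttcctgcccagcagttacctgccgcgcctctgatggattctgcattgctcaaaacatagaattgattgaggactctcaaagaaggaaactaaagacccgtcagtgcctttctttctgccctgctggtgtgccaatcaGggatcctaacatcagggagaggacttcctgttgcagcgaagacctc
Both coding sequences are 396 bases long and align without gaps, with 97.7% identical bases. Of the 9 differences, 2 lie beyond the stretch shown, and the longest identical run is 188 bases. Along the whole Ly6c2 transcript, 33.7% of all 50-base windows also occur unchanged in the Ly6c1 transcript, as do 16.4% of all 100-base windows. Ly6a is further away, with a coding identity of 82.3% to Ly6c2, and Ly6e further still, at 54.7%. FPKM of Ly6c2 and Ly6c1 therefore depends on how shared fragments were divided between them, and the sum of the pair is given beside the separate values.

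The regions around the annotated start sites of the Ly6C genes follow because the pair had nearly the same pattern over the 8 libraries. RefSeq promoter windows of 300 bases, with 250 before and 50 after the start site, were found for 4 of the 6 genes (GRCm38.p6), namely Ly6c2, Ly6c1, Plac8 and Crip1. The windows below hold the letters GAGGAAGT, a core recognised by the myeloid factor PU.1, which are in capitals.
Ly6c2, chr15:75111922-75112221, minus strand: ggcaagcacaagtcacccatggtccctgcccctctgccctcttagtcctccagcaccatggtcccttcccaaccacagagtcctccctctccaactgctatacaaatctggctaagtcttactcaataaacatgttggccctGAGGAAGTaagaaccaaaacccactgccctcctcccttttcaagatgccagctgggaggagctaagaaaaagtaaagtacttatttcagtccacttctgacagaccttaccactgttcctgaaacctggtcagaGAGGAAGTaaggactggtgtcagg
Ly6c1, chr15:75048614-75048913, minus strand: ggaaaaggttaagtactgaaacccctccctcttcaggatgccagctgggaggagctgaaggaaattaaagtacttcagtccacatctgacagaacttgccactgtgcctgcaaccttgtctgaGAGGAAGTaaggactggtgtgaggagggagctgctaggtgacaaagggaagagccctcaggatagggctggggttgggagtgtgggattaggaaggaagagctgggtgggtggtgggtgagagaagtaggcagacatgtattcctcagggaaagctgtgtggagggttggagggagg
Searched on both strands, GAGGAAGT occurred at -108 and at 27 from the start site in the Ly6c2 window and at -127 in the Ly6c1 window. The Ly6c2 match at 27 and the Ly6c1 match at -127 are followed by nearly the same bases, although their distances from the annotated starts differ. A further RefSeq window of each gene starts elsewhere, and that of Ly6c2 held the same matches. That of Ly6c1 ended within the letters matched in the window shown, so it held no full match. GAGGAAGT was found in 3.20% of 32851 promoter windows of this length. The windows of Plac8 and Crip1 held no match to it. None of the windows of these 4 genes matched the other motifs searched, which were GAAA repeated after any 2 bases (the core of the interferon-stimulated response element, in 3.44% of all windows), TTCNNNGAA (STAT site, in 8.30%) and TTGCGCAA (C/EBP site, in 0.183%). These matches are descriptions of letters in a window and say nothing of binding.

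Each library held one FPKM value per row, that is, fragments per kb of transcript and per M mapped fragments (M, 1000000) as estimated by the authors. Depth was not given with the files, and the confidence intervals in them put it at about 18.7 to 23.8 M fragments in macrophages and 11.5 to 20.4 M in microglia. Genes at 1 FPKM or more numbered 8814 to 10282 in macrophages and 5992 to 9505 in microglia, with the fewest in microglia 2. Libraries also differed in ways that the groups do not name. Summed FPKM of 4 Y-linked genes was 0.0107 to 1.97 in the 4 macrophage libraries, against 25.8, 11.7, 16.5 and 0.0533 in microglia 1 to 4. The 8 haemoglobin and other red-cell genes summed to 1.64 to 25.8 FPKM in macrophages and to 3.63 to 2440 FPKM in microglia, highest in microglia 3. Nothing in the labels says that the 4 libraries of a group came from different animals, so p-values measure the spread between libraries, which may be technical.

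Of the 6 genes, 5 were higher in infiltrating macrophages by limma at a Benjamini-Hochberg adjusted p below 0.05 over 9352 tested genes, the rule used throughout for calling a gene, and 0 were lower. Over all tested genes 1.65% were called higher and 0.695% lower, 2.34% in all. By limma, 1402 of the 9352 genes had an unadjusted p below 0.05 in either direction. A positive log2 difference was seen in 67.1% of tested genes. The genes called were Ly6c2, Plac8, Ly6c1, Ly6a and Crip1, with log2 differences between 3.50 and 6.19, and Ly6e was not called. In the same 5 genes every macrophage library lay above every microglial library, which held for 5.69% of tested genes, and in 0 every macrophage library lay below every microglial library (1.95% of tested genes). For Ly6c1, below 1 FPKM in every microglial library, the filter itself required the macrophage libraries to lie above. The median log2 difference was 4.30 over the 6 genes and 0.37 over all tested genes. Each log2 difference is the mean log2(FPKM + 1) of macrophages less that of microglia, and adding 1 makes it smaller than the true ratio for genes near 0. In these bulk libraries, a smaller share of cells expressing a gene and less of its RNA per cell cannot be told apart.

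**Figure D1:**
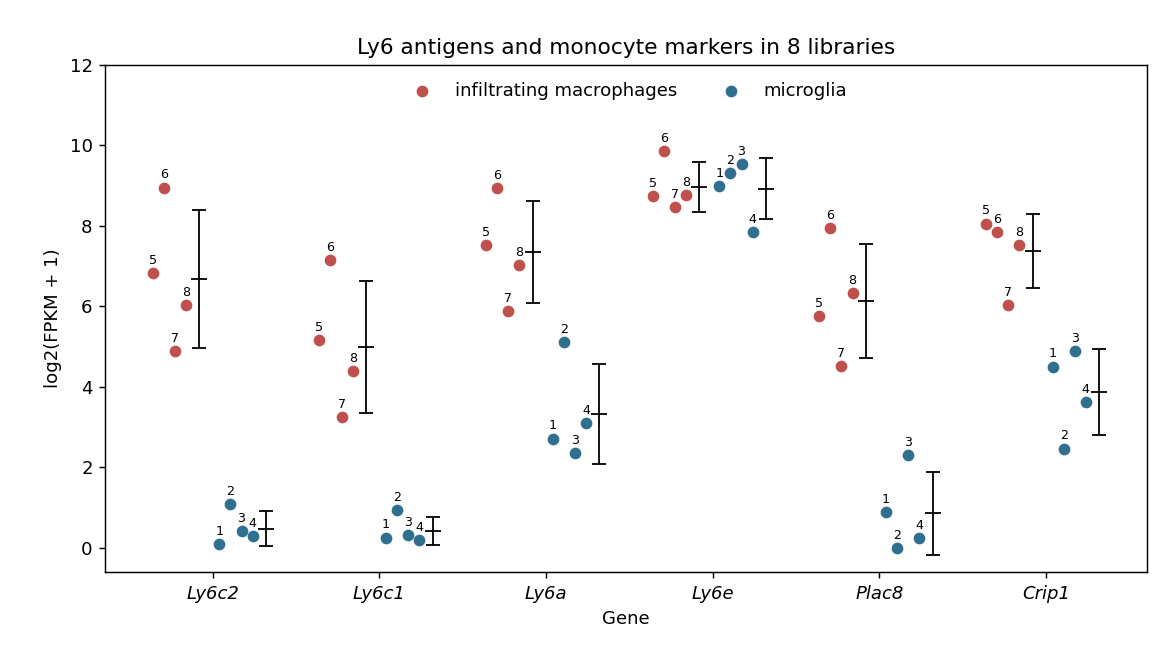
Expression of the 6 genes in 8 libraries, as log2(FPKM + 1) on the vertical axis, with infiltrating macrophages on the left of each gene and microglia on the right. Points are libraries with their numbers, and bars are the mean and SD of each group on this scale (n = 4 each); the groups overlap in Ly6e and are separate in the other 5 genes, and macrophage 7 is the lowest macrophage library in every gene.

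Ly6c2 had 112, 495, 28.6 and 64.5 FPKM in macrophages 5 to 8, against 0.0694, 1.14, 0.341 and 0.230 FPKM in microglia 1 to 4. The lowest macrophage library, 7, was 25.0 times the highest microglial library, 2. Means were 175 ± 216 FPKM in macrophages and 0.445 ± 0.477 FPKM in microglia (SD, n = 4 each), so the spread among macrophages exceeded their mean. The log2 difference was 6.19 (SE 0.73, 95% interval 4.68 to 7.71, limma adjusted p = 1.07e-05), the largest of the 6 genes. In the ranking of all genes by FPKM, Ly6c2 stood at positions 135 to 954 in macrophages and at 5843 to 13209 in microglia. Fragment numbers implied by the authors' intervals were 287 to 3093 in macrophages, against 15.2, 6.25 and 6.61 in microglia 2 to 4, while in microglia 1 the interval reached 0. Microglial Ly6c2 thus rested on a handful of fragments per library, and its order among these libraries is not resolved.

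Ly6c1 followed the same pattern at a lower level. It had 35.1, 142, 8.52 and 20.1 FPKM in macrophages 5 to 8, against 0.195, 0.917, 0.239 and 0.143 FPKM in microglia 1 to 4. Macrophage 6 was again highest and macrophage 7 lowest, and the groups did not overlap, with 9.29 times between the nearest libraries. Means were 51.5 ± 61.5 FPKM in macrophages and 0.374 ± 0.365 FPKM in microglia (SD, n = 4 each), with a log2 difference of 4.57 (SE 0.77, 95% interval 2.98 to 6.16, limma adjusted p = 0.000912). In 3 of the 4 microglial libraries, all but microglia 2, the authors' interval for Ly6c1 reached 0.

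FPKM of both genes of the pair was thus high in macrophages, in a ratio that varied little. How far this ratio and the separate call of Ly6c1 depend on the division of shared fragments was not tested. Ly6c2 made up 76.1%, 77.7%, 77.0% and 76.3% of the summed FPKM of the pair in macrophages 5 to 8, against 26.3%, 55.4%, 58.8% and 61.6% in microglia 1 to 4. The macrophage shares lay within a narrow band above all microglial shares, but the microglial shares come from the few fragments described above. The sum was 147, 638, 37.1 and 84.6 FPKM in macrophages 5 to 8, against 0.264, 2.06, 0.580 and 0.373 FPKM in microglia 1 to 4. Entered as one feature in place of the separate rows, the sum had a log2 difference of 6.28 (SE 0.72, 95% interval 4.79 to 7.78, limma adjusted p = 6.34e-06), so the call of the pair does not rest on the division of shared fragments between them.

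**Figure D2:**
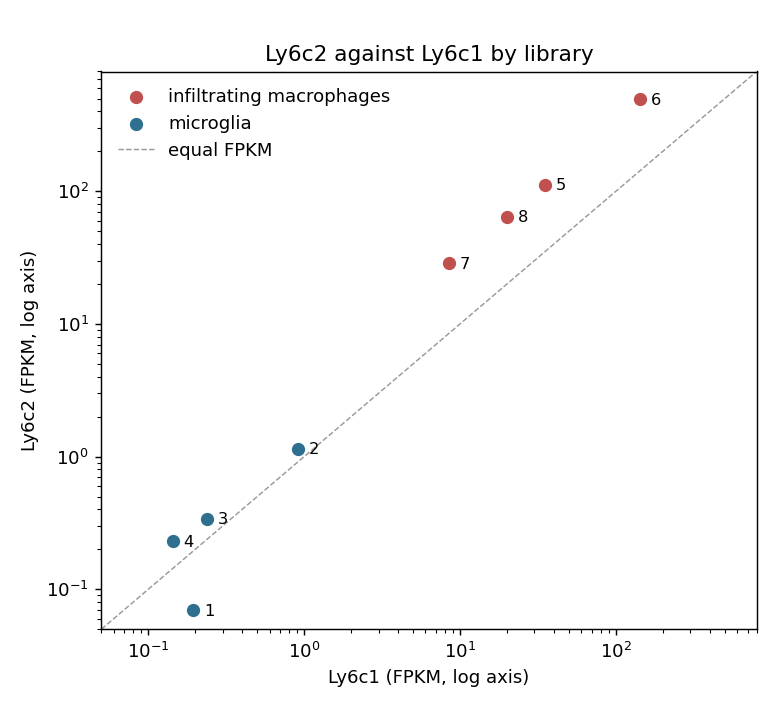
Ly6c1 and Ly6c2 in the 8 libraries, with FPKM of Ly6c1 on the horizontal and of Ly6c2 on the vertical axis, both logarithmic, and a dashed line at equal FPKM. Each point is a library with its number; the macrophage libraries run parallel to the line above it, where Ly6c2 is 76.1% to 77.7% of the sum, and microglia 1 lies below it.

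Ly6a, the Sca-1 gene, was high in macrophages and present in microglia as well. It had 183, 492, 58.6 and 130 FPKM in macrophages 5 to 8, against 5.58, 33.8, 4.12 and 7.55 FPKM in microglia 1 to 4. The groups did not overlap, but macrophage 7 was only 1.74 times microglia 2, which stood above the other microglial libraries. Means were 216 ± 191 FPKM in macrophages and 12.8 ± 14.1 FPKM in microglia (SD, n = 4 each), and the log2 difference was 4.03 (SE 0.66, 95% interval 2.66 to 5.40, limma adjusted p = 0.000692). Unlike the Ly6C genes, Ly6a was measured well above 0 in microglia, with 26.2 to 275 implied fragments per library.

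Ly6e was the most abundant of the 6 genes in every library but did not separate the populations. It had 431, 932, 357 and 432 FPKM in macrophages 5 to 8, against 508, 639, 749 and 230 FPKM in microglia 1 to 4. The groups overlapped, with the lowest value in microglia 4 and the highest in macrophage 6. Means were 538 ± 265 FPKM in macrophages and 531 ± 224 FPKM in microglia (SD, n = 4 each). The log2 difference was 0.04 (SE 0.48, limma adjusted p = 0.983), and its 95% interval of -0.95 to 1.03 bounds the size of any difference in these libraries. The sign of this difference turned under median-of-ratios scaling (-0.28) and without macrophage 6 (-0.26) or microglia 4 (-0.32). Because the other genes were low in microglia, Ly6e made up 92.2% to 95.2% of the summed FPKM of the 6 genes there, against 36.7% to 66.2% in macrophages. It ranked between positions 52 and 85 of all genes in macrophages and between 72 and 172 in microglia.

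The 4 Ly6 genes lie within 157 kb of chromosome 15 (mm9), in the order Ly6e (74785481 to 74790335), Ly6a (74825307 to 74828318), Ly6c1 (74875445 to 74879260) and Ly6c2 (74938591 to 74942379). No other listed gene overlapped these 4 genes in position, and overlaps with Plac8 and Crip1 were not examined. Between Ly6e and Ly6a lies Ly6i, a further Ly6 gene, which was outside the set and is named for its position. It had 11.3, 26.1, 4.39 and 6.42 FPKM in macrophages 5 to 8, against 2.15, 5.89, 10.5 and 0.204 FPKM in microglia 1 to 4. These values overlapped, and the log2 difference of 1.37 was not called (limma adjusted p = 0.423). Within 200 kb on either side of the 4 genes, Gml, Hemt1, Cyp11b1 and Cyp11b2 were listed at 0 in every library. Ly6f, beyond Ly6c2, stayed at or below 0.233 FPKM in macrophages and 0.123 FPKM in microglia. Differences between the populations in this stretch were therefore called at Ly6a, Ly6c1 and Ly6c2, and not at Ly6e or Ly6i.

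**Figure D3:**
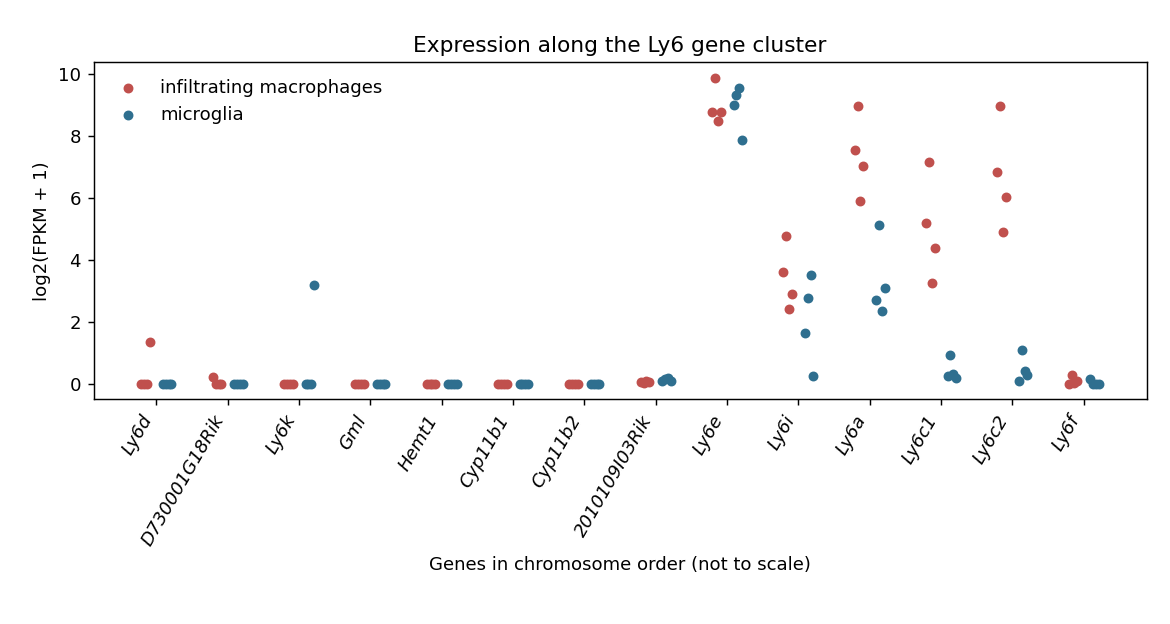
Expression of 14 genes in and around the Ly6 cluster in chromosome order, as log2(FPKM + 1) in each of the 8 libraries, macrophages on the left of each gene and microglia on the right. Ly6e is high in both populations, Ly6a, Ly6c1 and Ly6c2 are separate, and most genes outside these lie at or near 0.

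Plac8, on chromosome 5 (100982752 to 101001224, mm9), had the second largest difference. It had 53.5, 245, 21.8 and 79.5 FPKM in macrophages 5 to 8, against 0.841, 0, 3.93 and 0.186 FPKM in microglia 1 to 4. The groups did not overlap, with 5.56 times between macrophage 7 and microglia 3, and Plac8 was listed at 0 in microglia 2. The macrophage mean was 100.04 ± 99.7 FPKM (SD, n = 4), and the log2 difference was 5.28 (SE 0.74, 95% interval 3.76 to 6.80, limma adjusted p = 9.74e-05). In microglia Plac8 rested on 27.0 implied fragments at most, in microglia 3.

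Crip1, on chromosome 12 (114390223 to 114392090, mm9), was the least different of the 5 called genes. It had 266, 231, 64.2 and 183 FPKM in macrophages 5 to 8, against 21.7, 4.53, 28.8 and 11.3 FPKM in microglia 1 to 4. The groups did not overlap, macrophage 7 being 2.23 times microglia 3. Means were 186 ± 88.1 FPKM in macrophages and 16.6 ± 10.8 FPKM in microglia (SD, n = 4 each), with a log2 difference of 3.50 (SE 0.60, 95% interval 2.26 to 4.73, limma adjusted p = 0.00108). Crip1 has the shortest transcript of the set, 445 bases, and FPKM of such short transcripts depends strongly on the fragment length assumed. Its deposited FPKM was 1.75 to 1.79 times the middle of its own interval in macrophages and 1.47 to 1.69 times in microglia. This was not confined to Crip1. In macrophages the same ratio was 1.27 to 1.32 for Ly6c2, 1.19 to 1.28 for Ly6c1, 1.26 to 1.30 for Ly6a and 1.32 to 1.38 for Plac8. It was 0.985 to 0.987 for Ly6e. For Ly6c2 it was 0.892 to 1.07 in microglia 2 to 4, and for Ly6a 1.06 to 1.26 in microglia. With the middle of the interval in place of FPKM, a setting chosen after seeing the data, the log2 difference of Crip1 was 3.27 and the same 5 genes were called. The log2 differences of Ly6c2, Ly6c1, Ly6a and Plac8 were then 5.83, 4.27, 3.85 and 4.91, each smaller than as reported.

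**Figure D4:**
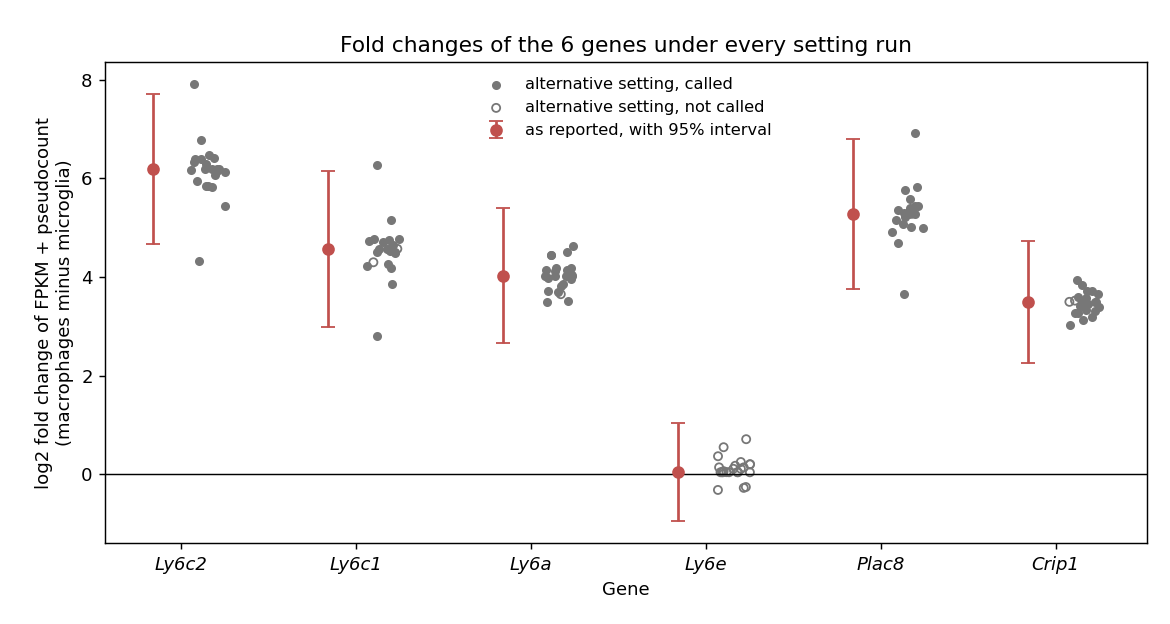
Log2 differences of the 6 genes, macrophages less microglia, as reported with their 95% intervals and under each alternative setting. Filled and open points tell whether the gene was called; all alternatives lie above 0 for Ly6c2, Ly6c1, Ly6a, Plac8 and Crip1, and those of Ly6e lie on both sides of 0.

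The macrophage libraries differed among themselves, in FPKM orders that were alike at their ends but not the same. Macrophage 6 was highest and macrophage 7 lowest in Ly6c2, Ly6c1, Ly6a, Ly6e and Plac8, while in Crip1 macrophage 5 was highest and 7 lowest. Macrophage 6 exceeded macrophage 7 by 17.3 times in Ly6c2, 16.7 times in Ly6c1, 11.2 times in Plac8, 8.39 times in Ly6a, 3.60 times in Crip1 and 2.61 times in Ly6e. These libraries also differed in the sum of FPKM over all genes, which was 207077 at the lowest and 512049 at the highest in macrophages. Expressed as parts per M of that sum, the excess of macrophage 6 over 7 was 7.01 times for Ly6c2, 6.75 for Ly6c1, 4.54 for Plac8, 3.39 for Ly6a, 1.45 for Crip1 and 1.06 for Ly6e. Ly6e then spanned only 1434 to 1821 parts per M in the 4 macrophage libraries, whereas Ly6c2 spanned 138 to 967. On this scale macrophage 7 was no longer the lowest for Ly6e, which was lowest in macrophage 5, and in Crip1 macrophage 8 also exceeded macrophage 6. On the log2(FPKM + 1) scale the SD among macrophages was 1.72 for Ly6c2, 1.65 for Ly6c1, 1.42 for Plac8, 1.26 for Ly6a, 0.920 for Crip1 and 0.614 for Ly6e.

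Correlations across the 8 libraries describe the same grouping, and they share the difference between the populations. Pearson's r of log2(FPKM + 1) was 0.996 between Ly6c2 and Ly6c1, 0.963 between Ly6c2 and Ly6a, 0.959 between Ly6c2 and Plac8 and 0.892 between Ly6c2 and Crip1. The first of these values also depends on how shared fragments were divided. Ly6e had r of 0.169 to 0.300 with the others. Among all tested genes outside the set, those most like Ly6c2 were Ribc1 (r = 0.996), Slfn1 (0.992), of the Schlafen family, and Sirpb1a (0.991), a signal-regulatory receptor. Ly6c1 shared Ribc1 and Slfn1 and was also near Rasgrp1 (0.988), a Ras activator. All of these were called higher in macrophages, Slfn1 with 6.49 to 67.1 FPKM in macrophages against at most 0.0291 FPKM in microglia. Each was below 1 FPKM in every microglial library and passed the filter through the macrophage libraries alone.

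The genes nearest to Ly6a were Cyp4f18 (r = 0.989), a leukotriene-metabolising enzyme, Dusp6 (0.986), a phosphatase of ERK, and Pydc3 (0.986), of the interferon-inducible Ifi200 group. Cyp4f18 and Pydc3 were called higher, and Dusp6 was not (limma adjusted p = 0.114). Those nearest to Plac8 were Gins3 (0.982), a replication factor, Pim1 (0.981), a kinase, and S1pr2 (0.976), a sphingosine-1-phosphate receptor, of which Gins3 and S1pr2 were called higher. Gins3 and Pim1 were below 1 FPKM in every microglial library and passed the filter through the macrophage libraries alone. Crip1 was nearest to Lyz2 (0.979), Rbck1 (0.978) and Lyz1 (0.977), none of them called. Lyz2, the myeloid lysozyme gene, had 1545 to 3335 FPKM in macrophages and 736 to 1243 FPKM in microglia. Ly6e was nearest to Itpripl2 (0.971), Hnrnph1 (0.967) and Ifitm3 (0.963), none of them called. Ifitm3, an interferon-induced membrane protein, had 604, 1913, 468 and 521 FPKM in macrophages 5 to 8, against 487, 1513, 1571 and 177 FPKM in microglia 1 to 4, and was highest in macrophage 6 and lowest in microglia 4, as Ly6e was.

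Relatives of the 6 genes and the enzymes that attach GPI anchors were set beside them. Of 32 other genes of the Ly6 and uPAR family, 28 had a row, 2 passed the filter, and 0 were called. Plaur, the urokinase receptor and the more abundant of these, had 28.3, 101, 17.8 and 19.7 FPKM in macrophages 5 to 8, against 44.4, 10.6, 74.2 and 64.6 FPKM in microglia 1 to 4. Of 29 genes that build or attach GPI anchors, 22 were tested and 0 were called, with a median log2 difference of 0.43, beside 0.37 over all tested genes. Dpm3, a subunit of dolichol-phosphate mannose synthase and the most abundant of them, had a log2 difference of -1.41 (limma adjusted p = 0.300). Of 11 small LIM-domain genes related to Crip1, 3 were tested and 0 were called, Lmo2 at a log2 difference of -0.76 (limma adjusted p = 0.577). At an unadjusted p below 0.05, 1 GPI-anchor gene was higher and 1 lower, and none of the Ly6 and uPAR or LIM-domain genes was either. The same limma threshold was met by 1402 of all 9352 tested genes in either direction.

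Other genes of classical monocytes were partly higher in macrophages. Of 30 listed, 26 were tested, 8 were called higher and 0 lower, with a median log2 difference of 1.90 and 25 of 26 positive. Of all tested genes 1.65% were called higher, and 67.1% had a positive log2 difference. Among the called genes, Hp, Chi3l3 and Itga4, named after their values were seen, were below 1 FPKM in every microglial library. The filter, passed through the macrophage libraries alone, fixed the direction of these calls. Tgfbi, a secreted matrix protein of monocytes, had 582, 598, 159 and 369 FPKM in macrophages 5 to 8, against 52.3, 80.6, 12.9 and 53.5 FPKM in microglia 1 to 4. Ms4a4c, a four-pass membrane protein, had 55.0, 240, 24.3 and 81.2 FPKM in macrophages 5 to 8, against 5.88, 8.07, 4.81 and 4.35 FPKM in microglia 1 to 4. Vim, the gene of vimentin, was also called (log2 difference 2.29, limma adjusted p = 0.0266). In all 3, macrophage 7 was the lowest macrophage library and the groups did not overlap. The count of 8 fell to 4 without macrophage 5, 6 or 8 or microglia 3, was 5 without microglia 4 and 12 without macrophage 7.

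Of 16 genes of patrolling monocytes, 10 were tested, 3 were called higher and 0 lower. Napsa, the aspartic protease napsin A, had 80.4, 39.2, 10.9 and 106 FPKM in macrophages 5 to 8 and at most 0.199 FPKM in microglia. Pglyrp1 and Cd300e, a peptidoglycan-binding protein and an activating receptor, had no FPKM above 0 in microglia and had 2.20 to 9.84 and 1.26 to 4.58 FPKM in macrophages. Like Napsa, they were below 1 FPKM in every microglial library and passed the filter through the macrophage libraries alone. The filter thus fixed the direction of all 3 calls. The share called higher over all tested genes was 1.65%. Both lists of monocyte genes held called genes, those of the patrolling list with a direction fixed by the filter. No test of a difference between the lists was made.

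Ly6a and Ly6e are interferon-inducible, and other genes of that response were set beside them. Of 32 genes of the type I interferon response, all were tested and 0 were called by limma (1 was called without microglia 1). At an unadjusted limma p below 0.05, 8 were higher, beside 1402 of all 9352 tested genes in either direction. The median log2 difference of the 32 genes was 0.81, beside 0.37 over all tested genes. Ifi27l2a, the most abundant, had 734, 2000.2, 826 and 329 FPKM in macrophages 5 to 8, against 929, 1558, 1340 and 609 FPKM in microglia 1 to 4. These values overlapped, as those of Ly6e did. Of 16 GTPases induced by interferon gamma, 15 were tested and 2 called higher, Ifi47 (log2 difference 3.30, limma adjusted p = 0.0266) and Gbp8 (2.68, limma adjusted p = 0.0143). For comparison, 1.65% of all tested genes were called higher. The groups overlapped in Ifi47, with 19.9 FPKM in macrophage 7 and 24.9 FPKM in microglia 2. Gbp8 was below 1 FPKM in every microglial library and passed the filter through the macrophage libraries alone. The count of 2 was 1 without macrophage 6 or 8 or microglia 1 or 4 and was 4 without macrophage 7.

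Markers of other cells that make Ly6 antigens or Plac8 were counted beside these results. Of 16 endothelial genes, Cldn5 and Sox17 were at 0 in every library, 3 in all were at 0 in every macrophage library and 5 in every microglial library, and their sum was 6.18 to 16.1 FPKM in macrophages and 2.78 to 7.12 FPKM in microglia. Of 14 neutrophil genes, 5 were tested and 3 called higher, S100a8, S100a9 and Retnlg. All 3 were at 0 in every microglial library and passed the filter through the macrophage libraries alone. S100a8 had 22.0, 92.0, 67.4 and 38.5 FPKM in macrophages 5 to 8 and was listed at 0 in all 4 microglial libraries. S100a8, S100a9 and Retnlg were all highest in macrophage 6, as the Ly6C genes were. All 3 were higher in macrophage 7 than in macrophages 5 and 8, whereas the Ly6C genes were lowest in macrophage 7. The neutrophil sum was 58.3 to 259 FPKM in macrophages and 27.4 to 37.8 FPKM in microglia, with 4 of the 14 genes at 0 in every macrophage library. Most of the microglial sum came from Csf3r, a cytokine receptor named after its values were seen, with 9.07 to 15.2 FPKM in macrophages and 26.0 to 36.3 FPKM in microglia (log2 difference -1.34, limma adjusted p = 0.242). T and NK cell genes summed to 7.47 to 42.3 FPKM in macrophages and 0.201 to 6.93 FPKM in microglia, B cell genes to 6.41 to 18.3 and 0.0174 to 40.7 FPKM, and dendritic cell genes to 85.0 to 249 and 80.1 to 121 FPKM, and few of these genes passed the filter. Tested were 2 of 18 T and NK cell, 2 of 9 B cell, 5 of 13 dendritic cell and 3 of 16 endothelial genes, with 0 called by limma and 3 dendritic cell genes higher at an unadjusted p below 0.05. Among the untested genes Ccr7, Ccl22 and Klrd1, named after their values were seen, reached 62.4, 23.9 and 20.6 FPKM in macrophages and were listed at 0 in every microglial library. The part of endothelium, neutrophils, lymphocytes or dendritic cells in the values of the 6 genes was not tested.

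The labels were also set against genes of microglia. Of 15 microglial genes, 0 were called higher in macrophages and 5 lower, and their sum was 1119 to 3267 FPKM in macrophages and 3640 to 5034 FPKM in microglia. Over all tested genes 1.65% were called higher and 0.695% lower. The count of 5 was 3 without macrophage 5 or 8 or microglia 1. Sparc had at most 0.242 FPKM in macrophages, against 159 to 694 FPKM in microglia. Sparc and Sall1, the latter named after its values were seen, were below 1 FPKM in every macrophage library. Both passed the filter through the microglial libraries alone, which fixed the direction of their calls. P2ry12 had 17.3, 29.0, 4.54 and 10.6 FPKM in macrophages 5 to 8, against 152, 116, 100.05 and 86.8 FPKM in microglia 1 to 4. Sparc was thus near 0 in macrophages, and P2ry12 was low but present in them. Other genes of the list, named after their values were seen, overlapped between the groups and were not called. Tmem119 had 106 to 365 FPKM in macrophages and 179 to 339 FPKM in microglia, and Csf1r, Cx3cr1 and Fcrls had log2 differences of -0.30, -0.81 and -0.87. Genes of retinal neurons and glia summed to 18.0 to 75.9 FPKM in macrophages and 85.8 to 222 FPKM in microglia. Of these 21 genes, 7 were tested, 4 were lower at an unadjusted p below 0.05 and 1 was called, Slc1a3, which was lower in macrophages, and the count was 0 without macrophage 5 or 8 and 2 without macrophage 7 or microglia 2.

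The counts over all genes depended on single libraries more than the calls of the 6 genes did. The 154 genes called higher were 78 without macrophage 6, 82 without macrophage 5 and 84 without macrophage 8, and the 65 called lower were 40 without macrophage 5 and 35 without macrophage 8, while the 5 genes stayed called without each of the 8 libraries in turn. A term for Y-linked expression left 2 of the 5 genes called, Ly6c2 (log2 difference 5.85, limma adjusted p = 0.00597) and Plac8 (5.43, limma adjusted p = 0.0141). Ly6c1, Ly6a and Crip1 then had log2 differences of 4.30, 3.65 and 3.52 with limma adjusted p-values of 0.141, 0.148 and 0.122. Microglia 4, in which Y-linked RNA was as low as in macrophages, lay within the range of the other microglial libraries in Ly6c2, Ly6a, Plac8 and Crip1 and below them in Ly6c1 and Ly6e. The part of the Y-linked difference in these results was not tested beyond this term.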

How the data were processed

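RNA extracted with Sepazol reagent was made into libraries with an Illumina mRNA-seq kit, per the labels' protocols. The submitters' processing notes name mm9, Cufflinks 2.1.1 and bcl2fastq 1.8.4; no source used here gives the aligner, annotation, strandedness or read length. Per the file headers, each deposited table holds the authors' FPKM per gene with the bounds of a confidence interval. Depth and fragment numbers were estimated from intervals read as 2 SD either side under Poisson counting, an assumption; an interval that reaches 0 then means 4 fragments or fewer.

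Of 22558 symbols, 9 with a failed estimate in any library were left out, and 463 repeated rows were summed by symbol. FPKM are not counts, so limma 3.58.1 (R 4.3.3) was run on log2(FPKM + 1), with an intensity trend and no covariate. Tests were two-sided, with Benjamini-Hochberg adjustment over 9352 genes that reached 1 FPKM in 4 or more libraries. A gene below 1 FPKM in all 4 libraries of a group passed only if all 4 of the other group reached 1 FPKM. For such a gene the filter fixed the direction and the separation of the groups. FPKM does not remove differences in composition between libraries. Libraries were grouped by the labelled tissue subtype.

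The 6 genes, the gene lists and the alternatives were chosen with earlier results of these data known. Genes named are the 6, the 3 most correlated genes of each (small RNAs, predicted genes and clones left out), and in each list up to 3 called genes, taken by mean FPKM, or with none called the tested gene of highest mean; Ly6i, Ly6f, Cldn5, Sox17, the genes named at 0 in the Ly6 cluster and those so marked in the text were named after their values were seen. Lists were described by counts and medians, with no set test. Coding sequences were aligned with Biopython 1.88 in place of protein sequences, and promoter windows came from RefSeq. Tables were handled in Python 3.11.15 with pandas 2.3.3, numpy 2.4.6 and scipy 1.17.1.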

Additional observations from a re-analysis of the deposited data

Results flagged for a closer look

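In 3 of the 12 sets of 4 libraries (6 genes in each population), 1 library stood far from the others by Dixon's criterion. Chance meets it in about 1 of 20 sets of normal, independent values. Whether FPKM are normal was not tested and the 12 sets share libraries, so 3 of 12 cannot be set against that rate. Ly6c1 in microglia 2, at 0.917 FPKM, was one, its gap to the next library taking 0.876 of the range. Ly6a in microglia 2, at 33.8 FPKM, was another (0.884). The remaining one was Ly6e in macrophage 6, at 932 FPKM (0.869). As parts per M (1000000) of the FPKM sum, the same gaps were 0.923 for Ly6c1, 0.826 for Ly6a and 0.746 for Ly6e, so only that of Ly6c1 still passed. Without microglia 2 all 5 genes remained called.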

How the results depend on the processing

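Ly6c2 stayed called under all 22 alternatives run (log2 differences 4.32 to 7.91, highest adjusted p 0.0264), and no alternative turned the sign of the 5 called genes. With no filter on low values 1 of them was called, and with the Y-linked term 2; without a filter Plac8 had an adjusted p of 0.0513, Ly6c1 0.0838, Crip1 0.118 and Ly6a 0.138, with 20454 genes tested. Ly6e ranged from -0.32 to 0.24 when 1 library was left out and turned negative under median-of-ratios scaling (-0.28), without macrophage 6 (-0.26) and without microglia 4 (-0.32). Its highest values were 0.71 with the Y-linked term, 0.54 without microglia 2 and 3 together and 0.36 under quantile normalization. Leaving out 1 library kept 5 genes called each time.

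Genes called over all tested numbered 219 (154 higher, 65 lower). They were 136 (87 higher) at a pseudocount of 0.1, 50 (30 higher, 20 lower) with no filter, 132 (82 higher) at a filter of 5 FPKM, 335 (243 higher) at an equal FPKM sum, 1075 (744 higher, 331 lower) with array weights and 25 (17 higher, 8 lower) with the Y-linked term. Leaving out 1 library gave 119 to 258 called, 78 to 198 higher and 35 to 81 lower. The share of calls that were higher was 70.3%, against 54.3% under median-of-ratios scaling (106 lower) and 58.2% under quantile normalization (123 lower), where the median log2 difference of all genes was 0.12 and 0.07 in place of 0.37. Without macrophage 6 the share was lowest, 49.7% (78 higher, 79 lower), with a median of 0.19. The cause was not tested.

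The classical monocyte count of 8 ranged from 0 (no filter, Y-linked term) to 18 (array weights). Ly6c1 and Ly6c2 rest on few fragments in microglia, which limits the precision of their levels there. No paired analysis was possible because the groups share no replicate numbers.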
